A study of Rattus norvegicus with 10 samples.

Results

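The metabotropic glutamate (mGlu) receptor genes Grm2, Grm3, Grm4, Grm5, Grm7 and Grm8 were followed by name in the rat dentate gyrus after lateral fluid percussion injury, a model of traumatic brain injury (TBI) in which a fluid pulse strikes the exposed dura. Of these 6 genes, 5 were found among the 25399 genes of the nucleus matrices and among the 14166 genes of the bulk table, and Grm4 was not analysed here. In the bulk table they were the Entrez genes 24415 (Grm2), 24416 (Grm3), 24418 (Grm5), 81672 (Grm7) and 60590 (Grm8). The genes were taken by name.

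All animals were male Sprague Dawley rats with no labelled mutation or drug treatment, and tissue was the ipsilateral dentate gyrus, taken 3 weeks after injury or sham surgery. Bulk RNA-seq covered 3 sham rats and 3 TBI rats. Single nucleus RNA-seq (snRNA-seq) covered 2 TBI rats, 1 sham rat and 1 naïve rat, and the sham and naïve rats together served as the controls. The naïve rat had not been through the sham procedure, so that the 2 controls differ in more than the animal. P-values measure the spread between these single rats.

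mGlu receptors are G protein-coupled receptors that respond to glutamate more slowly than the ion channels do. Grm5 belongs to group I, which couples through Gq to phospholipase C and sits mainly at the edge of postsynaptic densities, held by Homer and Shank scaffolds. Grm2 and Grm3 form group II, and Grm4, Grm7 and Grm8 are in group III. Receptors of groups II and III couple through Gi/o, lower cyclic AMP and, where they sit on terminals, restrain transmitter release. In the dentate gyrus the granule neurons send mossy fibres to the hilus and CA3, and presynaptic mGlu2 on those fibres is a textbook feature of the circuit.

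Of 55863 barcodes in the 4 matrices, 55124 nuclei passed the filters, and 52952 of them fell in 23 clusters that took one of 11 class names from fixed marker genes. A class name such as granule-like says which marker list led the cluster, and the names can differ from those of the study. The granule-like class held 29299 nuclei in 5 clusters, of which the smallest, with 180 nuclei, was led by immediate-early genes such as Fosb and Arc. Levels below are in CPM, that is the UMIs of a gene summed over the nuclei of a class in a rat and scaled to a fixed total of UMIs for each class and rat. The median nucleus held 1647 to 2652 UMIs in the 4 rats. Nuclei of different rats shared 45 to 60 barcodes per pair of rats, at most 0.452% of the smaller library. Granule transcripts were also counted in nuclei of other classes. In the microglia-like class, which should lack them, Prox1, the transcription factor that specifies granule neurons, stood at 59.8% to 77.8% of its granule-like level, and Slc17a7, the vesicular glutamate transporter of these neurons, at 60.2% to 75.9%.

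Grm3, a group II receptor known from glia as well as neurons, had its highest levels in glia. In oligodendrocyte-like nuclei its CPM was 2726 in TBI rat 1, 2808 in TBI rat 2, 3164 in the sham and 3568 in the naïve rat, a mean of 3066 ± 384 (SD, n = 4). Astrocyte-like nuclei followed with 941, 1125, 1725 and 1566 CPM in the same order of rats, a mean of 1339 ± 367 (SD, n = 4). Granule-like nuclei held 250.2, 323, 476 and 206 CPM. The ranges of these 3 classes did not overlap, with 2.29-fold between the means of oligodendrocyte-like and astrocyte-like nuclei and 4.27-fold between those of astrocyte-like and granule-like nuclei. The lowest mean among the 9 classes with at least 50 nuclei in every rat was 105 CPM, in the other glutamatergic neurons.

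Shares of nuclei with a Grm3 UMI were also highest in oligodendrocyte-like and astrocyte-like nuclei among the classes compared here. A Grm3 UMI was found in 86.6% to 98.1% of oligodendrocyte-like nuclei, whose median depth was 734 to 1176 UMIs, and in 80.8% to 94.1% of astrocyte-like nuclei, at 1326 to 2430.5 UMIs. In granule-like nuclei it was found in 36.1% to 54.8%, at 1755 to 2736 UMIs. In microglia-like nuclei, at a median of 632 to 817 UMIs, the share was 11.95% to 33.3%, and the part of free RNA in that share was not tested. Astrocyte-like nuclei contributed 26.4% to 52.2% of all Grm3 UMIs of a rat, the far more numerous granule-like nuclei 27.5% to 41.3% and oligodendrocyte-like nuclei 14.5% to 30.2%. Expressed against the granule-like level of the same rat, Grm3 stood at 665% to 1733% in oligodendrocyte-like nuclei and at 349% to 761% in astrocyte-like nuclei, where Prox1 stood at 64.0% to 80.6% and at 42.3% to 67.7%.

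Oligodendrocyte-like nuclei fell in 2 clusters. The larger, cluster 5, held Grm3 at 4230 ± 640 CPM (SD, n = 4) and the smaller, cluster 17, at 1590 ± 281 CPM, and their ranges did not overlap. Cluster 17 had a median of 2244 UMIs per nucleus against 862 in cluster 5, and its summed granule marker level was 80.2% to 88.1% of the granule-like level against 18.6% to 51.4% in cluster 5. The astrocyte-like clusters 3 and 9, the latter led by Gfap, were close, at 1307 ± 379 and 1396 ± 398 CPM. Cluster 8, led by mitochondrial genes and Gfap and left unnamed, had 430, 770, 633 and 290 nuclei in TBI rat 1, TBI rat 2, the sham rat and the naïve rat and held Grm3 at 370 ± 109 CPM. Among granule-like clusters Grm3 ran from 122 CPM in cluster 4 to 405 CPM in cluster 0, a 3.31-fold range with no overlap between rats of the highest and the lowest cluster.

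**Figure D1:**
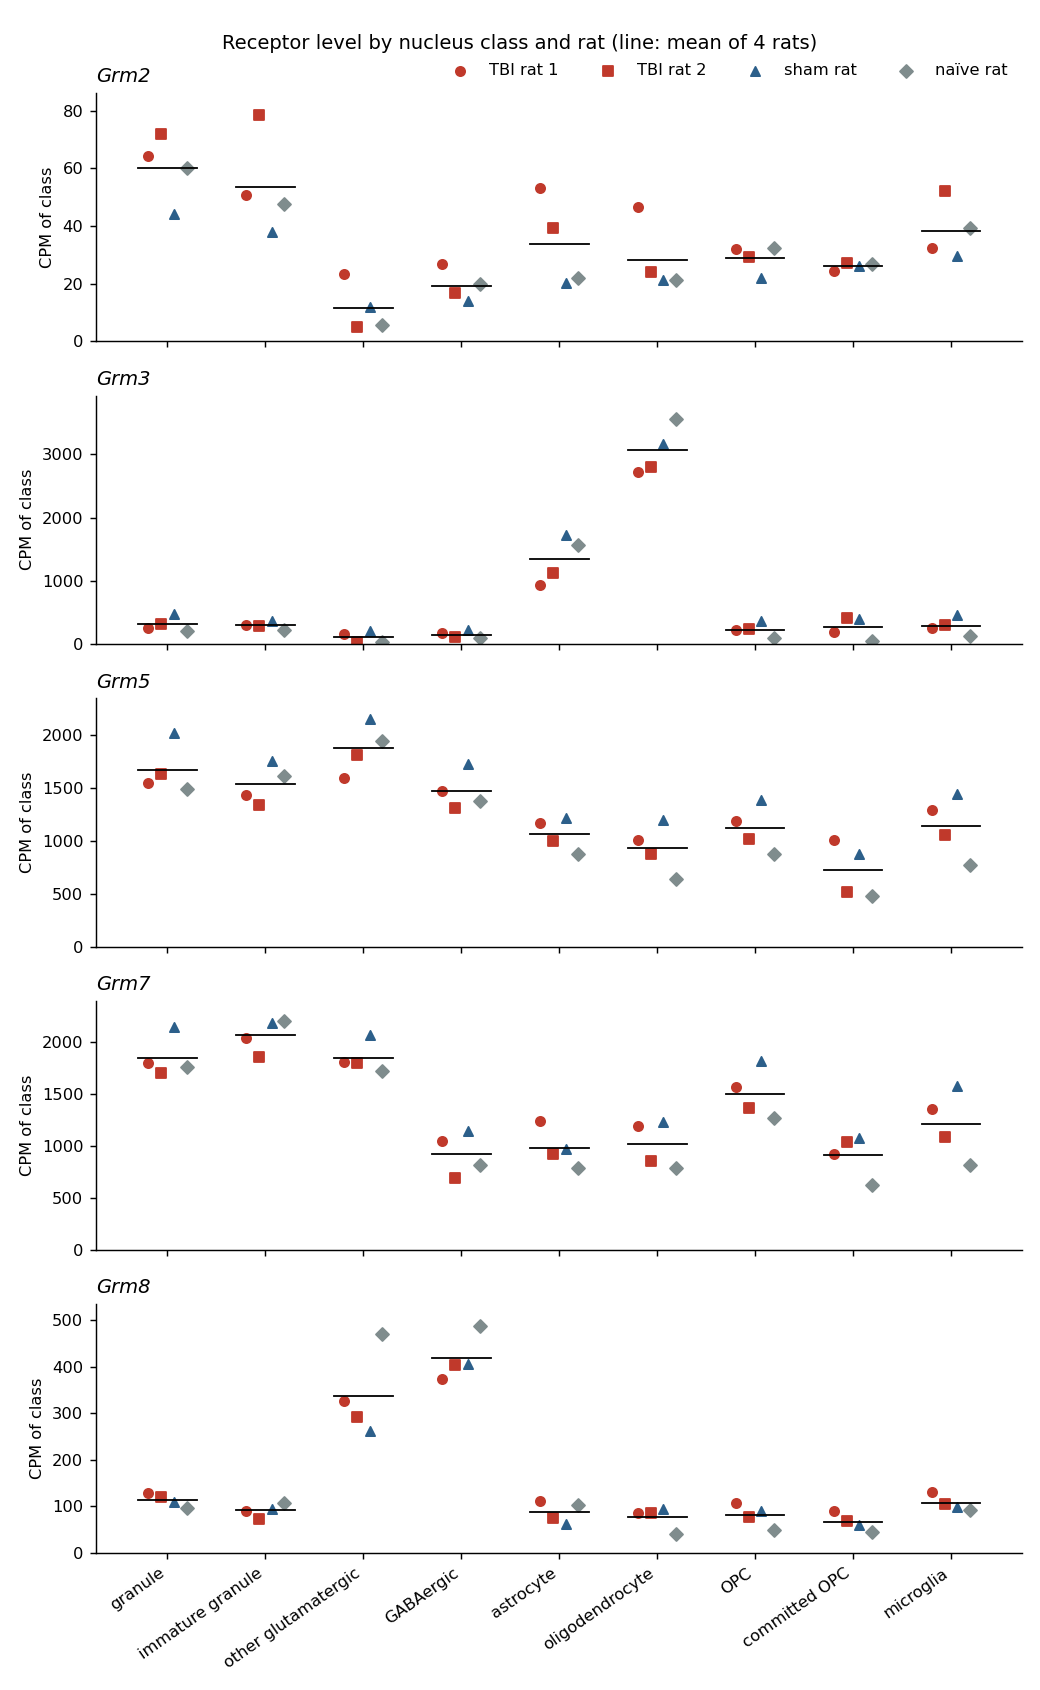
CPM of each receptor gene (vertical axes, linear, from 0) in 9 nucleus classes, with 1 point for each rat and a line at the mean of the 4 rats. Grm3 is set apart in oligodendrocyte-like (2726 to 3568 CPM) and astrocyte-like nuclei (941 to 1725 CPM), and Grm8 in GABAergic and other glutamatergic neurons, while Grm5 and Grm7 have overlapping neighbours throughout.

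Grm8, a presynaptic group III receptor with high affinity for glutamate, was highest in neurons outside the granule lineage. Granule-like nuclei still held 35.5% to 41.4% of its UMIs in a rat, as the largest class. GABAergic neurons held 374, 404, 407 and 487 CPM in TBI rat 1, TBI rat 2, the sham rat and the naïve rat, a mean of 418 ± 48.2 (SD, n = 4). The other glutamatergic neurons held 325, 293, 263 and 470 CPM, a mean of 338 ± 91.8. These 2 classes overlapped, and both lay above granule-like nuclei in every rat, which held 129, 119, 110 and 96.9 CPM. The mean of the other glutamatergic neurons was 2.97-fold that of granule-like nuclei.

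Within these classes Grm8 separated clusters more than any other of the 5 receptors did. Among other glutamatergic neurons, cluster 11, led by Adamts2, Fermt1 and Trpc7, held 776, 1037, 824 and 900.0 CPM, against 47.8, 27.6, 33.9 and 14.1 CPM in cluster 13, led by Rspo2 and Neurod6. Cluster 11 was 28.6-fold above cluster 13 in the means, and cluster 10, led by Htr2c, stood between them at 101 ± 25.6 CPM. Among GABAergic neurons, cluster 14, led by Reln and Npas1, held 701 ± 95.3 CPM and cluster 12, led by Il1rapl2, Sst and Elfn1, 429 ± 86.8 CPM. Cluster 15, led by Reln, Gad2 and Grik1, held 78.8 ± 36.6 CPM, 8.89-fold below cluster 14. Both the excitatory and the inhibitory class thus held a cluster with high and one with low Grm8, with no overlap between their rats. Granule-like clusters repeated this at a lower level, from 166 ± 17.6 CPM in cluster 0 to 37.4 ± 10.8 CPM in cluster 4. Cluster 10 was uneven over the rats, with 512, 216, 593 and 82 nuclei, so that class values of the other glutamatergic neurons mix the clusters in different shares.

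**Figure D2:**
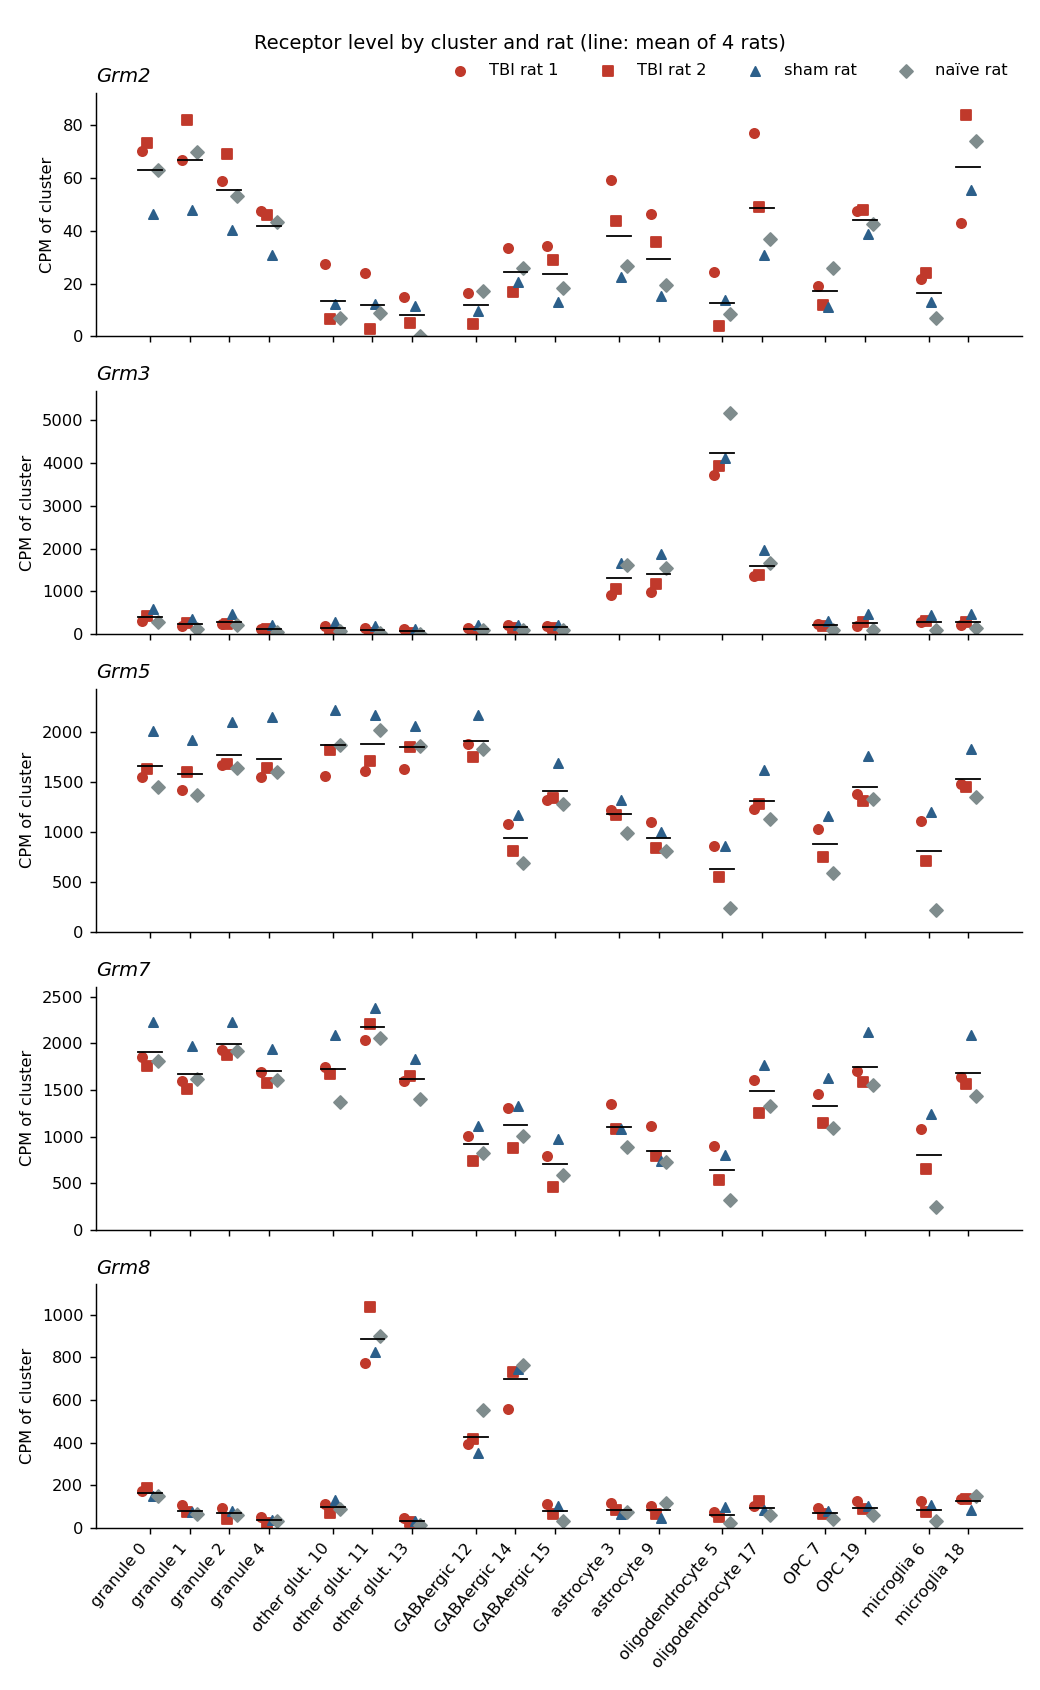
CPM of each receptor gene (vertical axes, linear, from 0) in the larger clusters of 7 classes, with 1 point for each rat and a line at the mean of the 4 rats. Grm8 is at 884 CPM in cluster 11 and at 701 CPM in cluster 14 against 30.9 CPM in cluster 13 and 78.8 CPM in cluster 15, and Grm3 is highest in oligodendrocyte-like cluster 5.

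Grm5, the group I receptor that acts through phospholipase C and calcium release, had a broad profile. The other glutamatergic neurons held 1596, 1810, 2152 and 1941 CPM in TBI rat 1, TBI rat 2, the sham rat and the naïve rat, and granule-like nuclei 1550, 1636, 2023 and 1489 CPM. Means went from 1875 ± 233 CPM (SD, n = 4) in the other glutamatergic neurons to 724 ± 263 CPM in committed precursors of oligodendrocytes, and each class overlapped the next in that order. The sham rat was the highest of the 4 in 8 of the 9 classes. Microglia-like nuclei held 1144 ± 295 CPM, which was 51.9% to 83.7% of the granule-like level in the same rat. The values of Prox1 and Slc17a7 given above lay within that range, while mean shares of the 9 granule markers ran from 52.0% (Pdzd2) to 162% (Trpc6). In cluster 6, the main microglia-like cluster, the naïve rat stood at 225 CPM against 716 to 1197 CPM in the other 3, and its granule marker sum was 2090 CPM against 4727 to 6024 CPM. What part granule transcripts had in the glial levels of Grm5 was not tested.

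Neuron clusters differed in Grm5 mainly among GABAergic neurons. Cluster 12, led by Il1rapl2, Sst and Elfn1, held 1912 ± 184 CPM (SD, n = 4), cluster 15 held 1409 ± 189 CPM and cluster 14 held 937 ± 224 CPM, and clusters 12 and 14 did not overlap. The 3 clusters of other glutamatergic neurons lay within 1.02-fold of each other, at 1850 to 1880 CPM.

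Grm7, a group III receptor of low affinity that is placed in the active zone of terminals, had its highest class mean in immature granule-like nuclei. Immature granule-like nuclei, led by Sema3c, Dpysl5 and Igfbpl1, held 2041, 1854, 2186 and 2200.2 CPM, a mean of 2070 ± 161 (SD, n = 4), which was 1757 CPM when nuclei were chosen by marker UMIs in place of clusters. Granule-like nuclei held 1797, 1701, 2145 and 1757 CPM, a mean of 1850, and the other glutamatergic neurons 1849 ± 148 CPM. These 3 classes overlapped. GABAergic neurons were at 926 ± 206 CPM, 40.8% to 58.2% of the granule-like level of the same rat. Oligodendrocyte precursor-like (OPC-like) nuclei held 1505 ± 243 CPM and, in their larger cluster 7, 1333 CPM. Grm7 in OPC-like nuclei was at 72.3% to 87.3% of the granule-like level, where the summed granule markers were at 65.1% to 76.2%. Within the other glutamatergic neurons cluster 11 was again highest, at 2169 ± 158 CPM against 1619 ± 174 CPM in cluster 13, with no overlap.

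Grm2, the group II autoreceptor of mossy fibres, was sparsely counted in granule-like nuclei, with 4081 UMIs in 29299 nuclei. Granule-like nuclei held 64.3 CPM in TBI rat 1, 72.0 in TBI rat 2, 44.2 in the sham and 60.1 in the naïve rat, a mean of 60.1 ± 11.7 (SD, n = 4). They contributed 65.0% to 81.2% of the Grm2 UMIs of a rat. Immature granule-like nuclei were at 53.7 ± 17.4 CPM and the other glutamatergic neurons at 11.3 ± 8.50 CPM, the lowest class mean. All 4 granule-like values lay above all 4 values of the other glutamatergic neurons and of GABAergic neurons, although each class overlapped its neighbour in the order. Microglia-like nuclei held 38.3 ± 10.1 CPM, 50.2% to 72.4% of the granule-like level, where the summed granule markers were at 55.2% to 78.8%. In their shallower cluster 6 the share was 11.5% to 33.6%, below the 22.4% to 66.6% of the summed granule markers in every rat. In their cluster 18 the share was 66.8% to 125.5% and that of the markers 87.2% to 92.8%.

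Genes whose profile over the 36 class sums (9 classes in 4 rats) was most like that of each receptor were found among 7456 genes by the Pearson correlation of log2(CPM + 1). For Grm2 they were Rsph10b (r = 0.887), Amotl1 (r = 0.880) and Rfx3 (r = 0.874). For Grm3 they were Gprc5b (r = 0.849), Ppp2r5a (r = 0.832) and Tmem229a (r = 0.821), the first of which had 112 CPM in astrocyte-like and 102 CPM in oligodendrocyte-like nuclei and 28.3 CPM in granule-like nuclei. For Grm5 they were Msra (r = 0.946), Shisa6 (r = 0.928), a gene for an AMPA receptor auxiliary protein, and Lrrc7 (r = 0.924), which codes for the postsynaptic protein densin. For Grm7 they were Brinp1 (r = 0.905), Ntrk3 (r = 0.891), the receptor of neurotrophin-3, and Ptprr (r = 0.891). For Grm8 they were Snhg11 (r = 0.914), the unnamed locus AABR07033882.1 (r = 0.899) and Pclo (r = 0.894), which codes for the active zone protein piccolo. Sums of one rat share a library and granule transcripts, so these correlations describe the profiles and carry no test.

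TBI was then compared with control in each of the 9 classes, by edgeR's quasi-likelihood test on UMI sums per rat, fitted over all genes of a class. The question was whether any class of nuclei differed in these receptors 3 weeks after injury. Of 43 fits of a receptor in a class, 0 passed an adjusted p of 0.05 (FDR) and 3 had an unadjusted p under 0.05, namely Grm3 and Grm2 in astrocyte-like nuclei and Grm5 in immature granule-like nuclei. edgeR called 0 genes of any kind in any class. DESeq2 called 262 of the 5482 genes with an adjusted p in astrocyte-like nuclei (4.78%), Grm3 among them. It called 1 of 9347 in oligodendrocyte-like nuclei (0.0107%) and 0 in the other 7 classes. The unadjusted threshold was passed by 12.5% of all genes in astrocyte-like nuclei, 7.13% in committed precursors, 4.19% in immature granule-like nuclei, 3.04% in OPC-like nuclei and 2.25% in microglia-like nuclei. In oligodendrocyte-like nuclei it was passed by 1.97%, in GABAergic neurons by 1.32%, in granule-like nuclei by 1.13% and in the other glutamatergic neurons by 0.73%. All classes of a rat come from the same library, so the comparisons in different classes share their animals.

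In astrocyte-like nuclei the Grm3 values of both TBI rats, 941 and 1125 CPM, lay below those of the sham and naïve rats, 1725 and 1566 CPM. The Log2FC was −0.74 (SE 0.16) with an edgeR p of 0.00197 and an adjusted p of 0.191. Both clusters of the class had the same order, with 904 and 1065 against 1652 and 1608 CPM in cluster 3 and 983 and 1176 against 1880.5 and 1543 CPM in cluster 9. Under 11 alternatives the Log2FC stayed negative, from −0.88 to −0.62, and the adjusted p ran from 0.000574 (edgeR without the filter on low counts) to 0.626, with 0.00348 by DESeq2. With each of the 4 rats left out, the edgeR adjusted p was between 0.192 and 0.626, and an arm left with 1 rat was assumed to vary like the others. In this class 17.8% of all genes lay lower in both TBI rats than in both controls.

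Grm2 stood on the other side in the same nuclei. It was at 53.0 and 39.3 CPM in the TBI rats and at 20.1 and 22.0 CPM in the sham and naïve rats, without overlap. The Log2FC was 1.07 (SE 0.24) with an edgeR p of 0.00294 and an adjusted p of 0.197, and over 11 alternatives it ran from 0.82 to 1.26. Its adjusted p ran from 0.00439 (edgeR without the filter on low counts) to 0.626, and DESeq2 gave none. Both TBI rats lay higher than both controls for 26.4% of all genes of this class.

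Marker levels also differed between the rats in astrocyte-like nuclei. The summed level of the astrocyte list was 5289 and 8244 CPM in the TBI rats against 8231 and 10394 CPM in the controls, and that of the granule list 5699 and 5547 against 4740 and 4000 CPM. The sum of the granule list, most of it Lrrtm4 (mean 3155 CPM in this class), thus separated TBI from control rats. Over the whole class the astrocyte list overlapped, TBI rat 2 lying just above the sham rat. In the larger cluster 3 alone the astrocyte list was at 4185 and 6006 CPM in the TBI rats and at 7042 and 7570 CPM in the controls, without overlap. All 9 granule markers were counted in the class, at means of 46.5% to 60.7% of their granule-like level. The part of these transcripts in the Grm3 and Grm2 differences was not tested. When nuclei were chosen by a gate on marker UMIs in place of clusters, the Log2FC was −0.64 (edgeR adjusted p = 0.405) for Grm3 and 0.83 (edgeR adjusted p = 0.417) for Grm2.

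**Figure D3:**
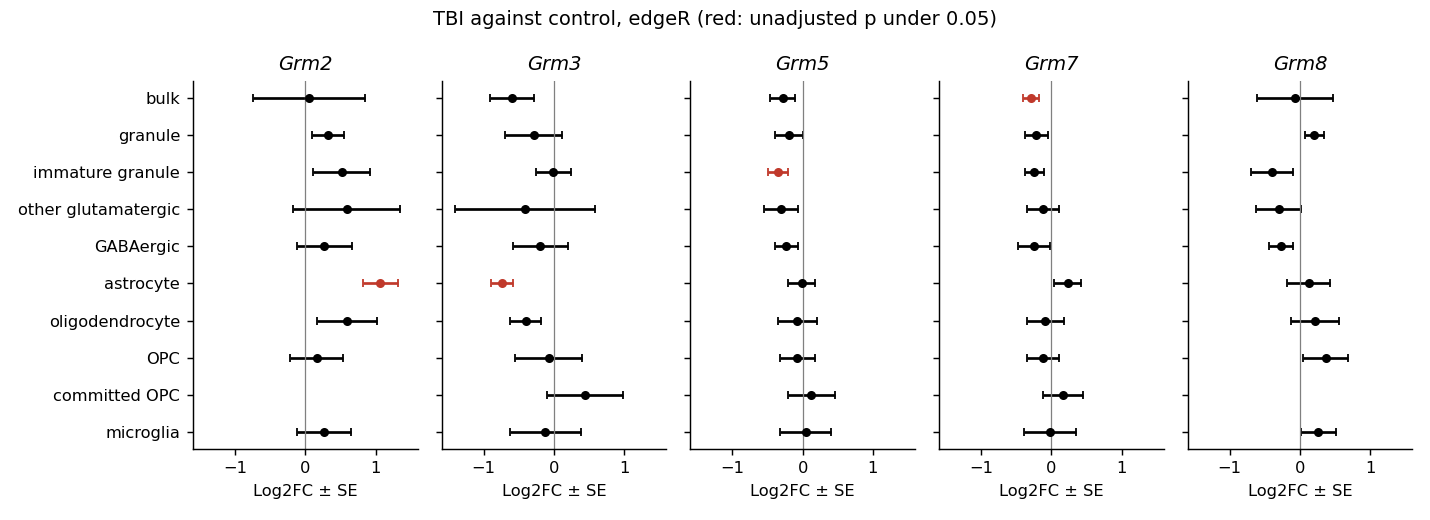
Log2FC of TBI against control (horizontal axes, with bars of 1 SE from edgeR) for each receptor in bulk RNA-seq and in 9 nucleus classes, red where the unadjusted p is under 0.05. The largest differences from 0 among the red points are Grm2 (1.07) and Grm3 (−0.74) in astrocyte-like nuclei, and no point has an adjusted p under 0.05.

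Oligodendrocyte-like nuclei had the Grm3 values in the same order, with both TBI rats (2726 and 2808 CPM) below the sham and naïve rats (3164 and 3568 CPM). The Log2FC was −0.40 (SE 0.23) and the edgeR adjusted p was 0.999. Lower values in both TBI rats were found for 7.98% of all genes of the class. In these nuclei Grm2 was at 46.4 and 24.0 CPM in the TBI rats and at 21.3 CPM in each control, a Log2FC of 0.59 (SE 0.43, edgeR adjusted p = 0.999), and 23% of all genes lay higher in both TBI rats. The Grm2 groups overlapped in the larger cluster 5 (24.4 and 3.92 against 13.8 and 8.37 CPM, from 3 to 15 UMIs per rat). In cluster 17 they did not (77.3 and 49.1 against 30.8 and 36.8 CPM, from 11 to 34 UMIs per rat). Over the 9 classes the Grm3 Log2FC ran from −0.74 to 0.44 and was negative in 8, but in 2 when the sham rat was left out.

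In granule-like nuclei no receptor passed the test. Grm2 was at 64.3 and 72.0 CPM in the TBI rats and at 44.2 and 60.1 CPM in the sham and naïve rats, a Log2FC of 0.33 (SE 0.23, edgeR adjusted p = 1), which was 0.09 without the sham rat and 0.59 without the naïve rat. Grm8 was at 129 and 119 CPM in the TBI rats and at 110 and 96.9 CPM in the controls, a Log2FC of 0.20 (SE 0.13). Neither gene had overlapping groups, and 19.9% of all genes in granule-like nuclei lay higher in both TBI rats. Taken by cluster, Grm8 had no overlap in cluster 0 (176 and 186 against 152.5 and 149.7 CPM), but its groups overlapped in clusters 1, 2 and 4. The groups overlapped for Grm3 (Log2FC −0.29, SE 0.41), Grm5 (Log2FC −0.19, SE 0.20) and Grm7 (Log2FC −0.22, SE 0.16), and for all 3 genes the sham rat was the highest. Without the sham rat the Log2FC was 0.40 for Grm3 and 0.01 for Grm5.

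Immature granule-like nuclei rest on 165 to 285 nuclei per rat. Grm5 was at 1432 and 1343 CPM in the TBI rats and at 1758 and 1616 CPM in the sham and naïve rats, a Log2FC of −0.35 (SE 0.14) with an edgeR p of 0.0295 and an adjusted p of 0.9998. Grm7 (Log2FC −0.24, SE 0.14) and Grm8 (Log2FC −0.40, SE 0.30) were also lower in both TBI rats than in both controls, as were 11.9% of all genes. Grm2 was higher in both TBI rats, at 50.7 and 78.5 CPM against 38.0 and 47.6 CPM, as were 21.2% of all genes, and it rested on 10 to 27 nuclei with a UMI in each rat.

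No receptor passed the test in neurons outside the granule lineage either. Among other glutamatergic neurons Grm5 was lower in both TBI rats (1596 and 1810 CPM against 2152 and 1941 CPM, Log2FC −0.30, SE 0.24, edgeR adjusted p = 0.9999), as were 8.73% of all genes. Among GABAergic neurons Grm8 was lower in both TBI rats (374 and 404 CPM against 407 and 487 CPM, Log2FC −0.27, SE 0.17, edgeR adjusted p = 0.999), as were 8.98% of all genes. The groups overlapped in 2 of the 3 GABAergic clusters, with 395 and 417 against 351 and 553 CPM in cluster 12 and 112 and 64.9 against 104 and 33.6 CPM in cluster 15, and in cluster 14 the values were 559 and 733 against 745 and 765 CPM. In microglia-like nuclei Grm8 was higher in both TBI rats (130 and 104 CPM against 98.2 and 91.2 CPM, Log2FC 0.26, SE 0.25), as were 18.6% of all genes. In both microglia-like clusters the groups overlapped, with 125 and 75.4 against 108 and 34.7 CPM in cluster 6 and 135 and 137 against 83.2 and 152 CPM in cluster 18.

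Bulk RNA-seq measured the same genes in whole tissue, where fewer cells of a type and less RNA per cell cannot be told apart. Depth was 25121893 to 44649404 estimated counts per library. Levels of the bulk libraries are also in CPM. edgeR called 0 of the 14166 genes, which is 0%, and 1360 genes had an unadjusted p under 0.05, which is 9.6%. DESeq2 called 349 genes and limma 0.

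Grm7 was the only one of the 5 receptors with an unadjusted p under 0.05 in bulk. Its CPM was 29.2, 32.3 and 35.2 in sham rats 1 to 3 and 28.0, 27.6 and 25.5 in TBI rats 1 to 3. Every TBI rat was below every sham rat, by 1.15 CPM between the closest pair, and 3.04% of all genes had this order. The Log2FC was −0.29 (SE 0.12) with an edgeR p of 0.0400 and an adjusted p of 0.483. Under 14 alternatives it stayed negative, from −0.37 to −0.23.

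Grm5 was at 63.8, 68.7 and 56.6 CPM in the sham rats and at 63.5, 55.1 and 40.5 CPM in the TBI rats. The groups overlapped, and TBI rat 3 was the lowest. The Log2FC was −0.28 (SE 0.18) and the edgeR adjusted p was 0.686. Its counts came from 2 transcripts in nearly equal shares, ENSRNOT00000050639.2 holding 48.1% to 61.0% of them, and the shares of the 2 groups overlapped.

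Grm3 was at 42.3, 98.1 and 46.9 CPM in the sham rats and at 43.0, 45.4 and 38.2 CPM in the TBI rats. Sham rat 2 stood apart, and the other 5 libraries lay between 38.2 and 46.9 CPM. The Log2FC was −0.60 (SE 0.31, edgeR adjusted p = 0.628) with all libraries and −0.12 without sham rat 2. In that library the 9 oligodendrocyte markers summed to 17808 CPM, against 5261 to 8316 CPM in the other 5. With the oligodendrocyte marker level as a covariate, an alternative added after the data were seen, the Log2FC was −0.19 (SE 0.13). The astrocyte markers summed to 9369 to 12602 CPM in the TBI rats and 6264 to 7083 CPM in the sham rats without overlap, and the part of either list in the Grm3 values was not tested beyond that fit. The transcript ENSRNOT00000007572.7 held 93.0% to 96.8% of the Grm3 counts.

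Grm2 had the widest range of the 5 receptors in bulk. It was at 79.3, 11.1 and 13.7 CPM in the sham rats and at 57.0, 14.0 and 38.7 CPM in the TBI rats, a 7.12-fold range. The groups overlapped fully, with a Log2FC of 0.05 (SE 0.80, edgeR adjusted p = 0.995), which was 1.51 without sham rat 1 and −0.43 without TBI rat 1. Sham rat 1, TBI rat 1 and TBI rat 3 were the 3 libraries with the most Grm2. All 8 granule markers that are on no other list, Prox1 and Calb1 among them, were also higher in these 3 libraries than in each of the other 3, as were 15.9% of all genes. Prox1 was at 105.7, 25.6 and 16.0 CPM in the sham rats and at 76.0, 24.8 and 47.8 CPM in the TBI rats. The 8 markers summed to 807, 235 and 190 CPM in the sham rats and to 576, 224 and 419 CPM in the TBI rats. Slc17a7, the granule marker that the other glutamatergic neurons share, had another order, at 2259, 2247 and 2912 CPM in the sham rats and 2095, 2332 and 1878 CPM in the TBI rats. With it, the 9 markers of the list summed to 3066, 2482 and 3103 CPM and to 2672, 2556 and 2297 CPM, so that TBI rat 3 was the lowest library. With the granule marker level as a covariate, also added after the data were seen, the SE of the Grm2 Log2FC was 0.22 and its value 0.02.

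Grm8 was low in bulk, at 3.28, 2.16 and 1.23 CPM in the sham rats and 3.11, 0.88 and 2.49 CPM in the TBI rats. These rest on 27 to 86 counts per library. The groups overlapped, and the Log2FC was −0.07 (SE 0.54, edgeR adjusted p = 0.989). Sham rat 1, TBI rat 1 and TBI rat 3 were again the 3 highest libraries, and the Log2FC was 0.31 without sham rat 1 and −0.44 without TBI rat 1.

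**Figure D4:**
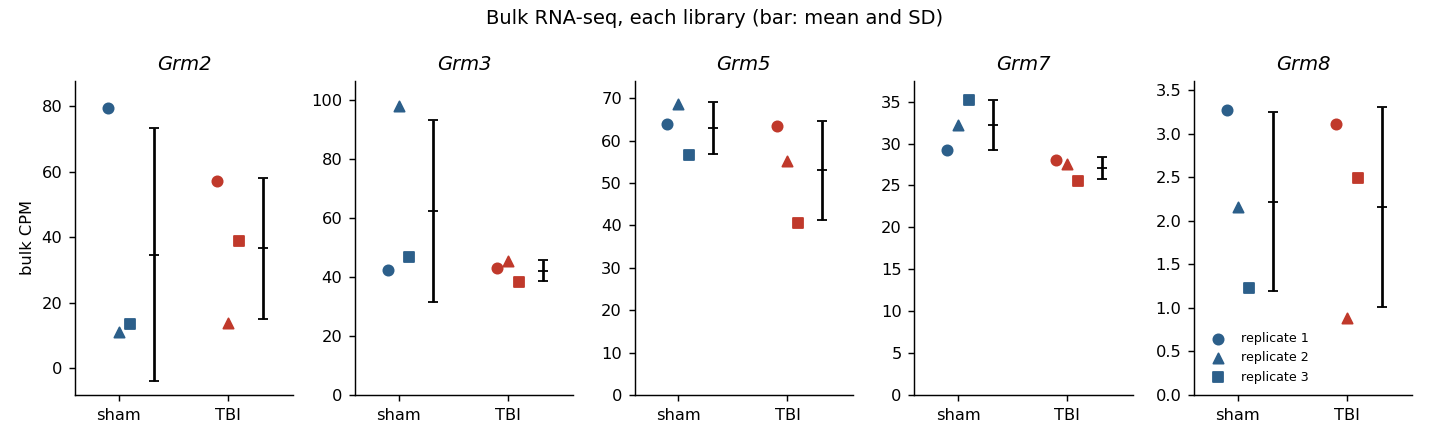
Bulk CPM of each receptor gene (vertical axes, linear) in 3 sham and 3 TBI libraries, with 1 point for each library and a bar at the mean and SD of the group. TBI libraries lie below all sham libraries only for Grm7, and sham rat 2 stands apart for Grm3 at 98.1 CPM.

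The dates of injury given for these rats were split by month into 2 periods. They are called spring for January to June (sham rats 1 and 2, TBI rat 1) and autumn for July to December (sham rat 3, TBI rats 2 and 3). The TBI minus sham difference in log2 CPM was −0.13 in spring and −0.40 in autumn for Grm7, −0.58 and −0.17 for Grm3, and −0.06 and −0.26 for Grm5. For Grm2 it was 0.94 and 0.77 and for Grm8 0.22 and 0.28. These are differences of means, with 1 library in one arm of each period, and single libraries ran the other way. In spring TBI rat 1 lay below sham rat 1 for both genes, and in autumn TBI rat 2 lay below sham rat 3 for Grm8. With surgery period as a covariate the Log2FC was 0.60 (SE 0.77, edgeR adjusted p = 0.913) for Grm2 and 0.28 (SE 0.48, edgeR adjusted p = 0.943) for Grm8. In the same fit it was −0.31 (SE 0.13) for Grm7, −0.48 (SE 0.35) for Grm3 and −0.19 (SE 0.16) for Grm5, with edgeR adjusted p of 0.770, 0.831 and 0.855.

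**Figure D5:**
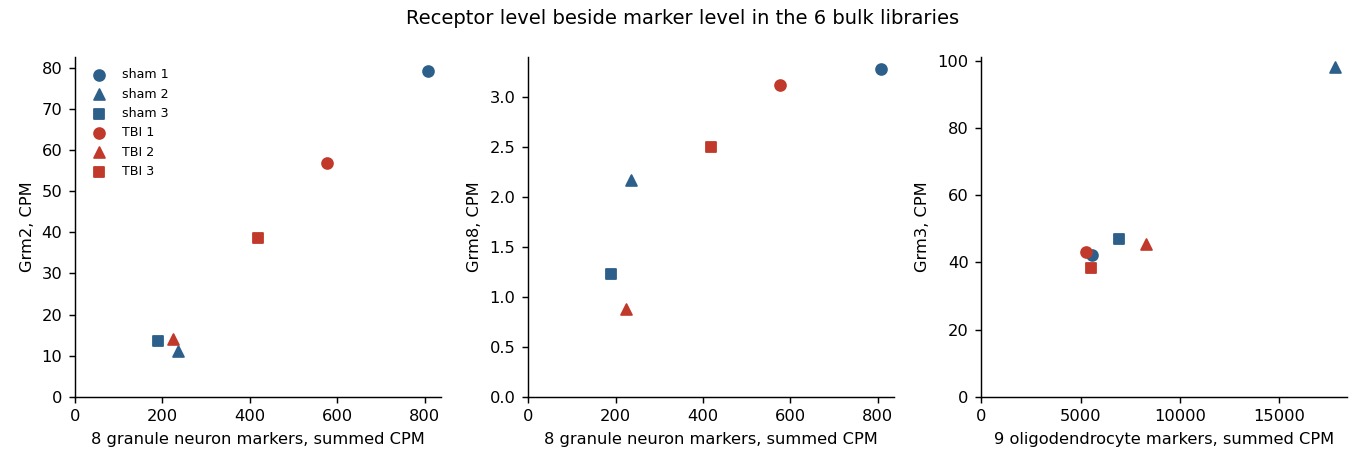
CPM of Grm2, Grm8 and Grm3 (vertical axes, from 0) in the 6 bulk libraries against the summed CPM of the 8 granule neuron markers on no other list (Slc17a7 left out) or 9 oligodendrocyte markers (horizontal axes, from 0). The libraries with most Grm2 (38.7 to 79.3 CPM) are those with the highest sums of these 8 markers (419 to 807 CPM), and sham rat 2 is highest for Grm3 and for oligodendrocyte markers.

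The proteins that mGlu receptors act through were followed with a list of 50 partner genes, fixed by name. In bulk 49 were tested, 0 passed the adjusted threshold, and 4 had an unadjusted p under 0.05, all higher in TBI. That is 8.16%, beside 9.6% of all genes. They were Gnai2 (Log2FC 0.33) and Gnai3 (Log2FC 0.31), the Gi subunits that group II and III receptors use, the G protein regulator Rgs20 (Log2FC 0.26), and Slc7a11 (Log2FC 0.75), the cystine-glutamate exchanger that supplies glutamate outside synapses. The sum of the microglia markers was also higher in all TBI libraries than in all sham libraries (613 to 1039 against 363 to 399 CPM). That of the astrocyte markers given above had the same order. The part of these cell types in the 4 genes was not tested. The median Log2FC of the partners was −0.18 beside −0.00 over all genes. Those with the most negative values were Trpc5 (Log2FC −0.47) and Kcnj6 (Log2FC −0.39), a channel that Gi/o receptors open.

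In astrocyte-like nuclei 47 partners were tested and 0 passed the adjusted threshold, while 18 were higher and 8 lower at an unadjusted p under 0.05, together 55.3% beside 12.5% of all genes. The lower genes included Slc1a2 (Log2FC −0.74) and Slc1a3 (Log2FC −0.79), the astrocyte glutamate transporters, both of which are also markers on the astrocyte list. Folh1 (Log2FC −0.81), the peptidase that cleaves the Grm3 agonist NAAG, and Slc7a11 (Log2FC −0.66), which had the other sign in bulk, were lower as well. The higher genes included Slc17a7 (Log2FC 0.71) and Adcy1 (Log2FC 0.67), which are on the granule list, and the synaptic scaffold Shank1 (Log2FC 0.86). The highest values were those of Elfn2 (Log2FC 1.31), scarce at 1.54 to 4.99 CPM in a rat, and Tamalin, counted under its older symbol Grasp (Log2FC 0.95). The median of the 47 was 0.20 beside −0.02 over all genes. The granule marker sum given above for astrocyte-like nuclei was higher in both TBI rats, and its part in these values was not tested.

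Among the 50 partners tested in granule-like nuclei, 0 passed the adjusted threshold and 0 had an unadjusted p under 0.05. The largest values were Elfn2 (Log2FC 0.65) and Homer2 (Log2FC 0.71) and, below 0, Naalad2 (Log2FC −0.83) and Folh1 (Log2FC −0.69). All of these were scarce in granule-like nuclei, with 0.41 to 9.94 CPM in a rat. In immature granule-like nuclei 2 of 38 were lower at an unadjusted p under 0.05, the calcium-activated cyclase Adcy1 (Log2FC −0.47) and the channel Kcnj3 (Log2FC −0.48), which is 5.26% beside 4.19% of all genes. Of 47 partners in GABAergic neurons 1 (2.13%, beside 1.32% of all genes) was higher at that threshold, Homer3 (Log2FC 2.45). Homer3 was scarce there, at 5.66 and 7.90 CPM in the TBI rats and 1.07 and 1.22 CPM in the sham and naïve rats. Of 49 in the other glutamatergic neurons 0 had an unadjusted p under 0.05. The numbers higher at an unadjusted p under 0.05 were 2 of 39 in oligodendrocyte-like nuclei (5.13%, beside 1.97% of all genes), 1 of 43 in OPC-like nuclei (2.33%, beside 3.04%), 4 of 24 in committed precursors (16.7%, beside 7.13%) and 1 of 40 in microglia-like nuclei (2.5%, beside 2.25%), with 0 lower in each. No partner passed the adjusted threshold by edgeR in any class. DESeq2 called 13 of the 35 partners to which it gave an adjusted p in astrocyte-like nuclei (37.1%, beside 262 of 5482 genes or 4.78%), 8 higher and 5 lower, the latter being Folh1, Rgs20, Slc1a2, Slc1a3 and Slc7a11, and 0 in each of the other 8 classes. In bulk it called 1 of 49, Slc7a11, which is 2.04% beside 2.47% of the 14154 genes with an adjusted p.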

How the data were processed

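The authors ran kallisto through ExpressAnalyst on the bulk reads and deposited estimated counts of 31715 transcripts, not normalized, and log2 CPM of 14166 genes. Gene counts were obtained by undoing the logarithm and scaling by the library total, and were rounded to whole numbers. Of the genes, 10096 (71.3%) equalled 1 transcript within 0.001 counts, and 13778 took a symbol from the RefSeq table of the GRCr8 assembly, used for names only. For nuclei the authors deposited UMI counts per rat from Cell Ranger on Rnor_6.0. Entries stored as 0 (1.63% to 27.4% of a matrix) were read as 0.

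Nuclei with at least 500 UMIs, 300 features and a log10 ratio of genes to UMIs of 0.8, and at most 5% mitochondrial and 2% ribosomal UMIs, were kept. Seurat 5.3.0 clustered them (2000 variable features without the receptor genes, 25 components, CCA integration, resolution 0.6). A cluster took a name when at least 3 markers of a list lay 0.5 (log2) above the median cluster and the list led the next by 0.5. Of 25 clusters 2 stayed unnamed, 1 of 49 nuclei by that margin and 1 of 2123 nuclei because at least 5 of its top 10 genes were mitochondrial, although the astrocyte list led it. Doublets were kept, and Scrublet (scanpy 1.11.5) was an alternative.

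UMI sums per rat and class were tested with edgeR 4.0.16 (filterByExpr, TMM, quasi-likelihood, Benjamini-Hochberg over all genes kept). Bulk counts were tested in the same way but without filterByExpr, which was an alternative there. Alternatives were DESeq2 1.42.0, limma 3.58.1 in bulk, other normalization and filters, a replicate block, each rat left out, a marker gate on nuclei with at least 3 UMIs of 2 markers, and others in the closing section. Rats were housed singly after surgery, and litters were not given in the sources used here. edgeR was tested on simulated counts with 200 changed genes. The most similar genes were the 3 with the highest r, among genes with a mean of at least 20 CPM over the 36 class sums. The receptor genes and lists were chosen with earlier results of these data known. R 4.3.3, Python 3.11.15 and scipy 1.17.1 were used.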

Additional observations from a re-analysis of the deposited data

Results flagged for a closer look

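The Log2FC of Grm8 had opposite signs in different classes of nuclei, and in each of them the 2 TBI rats did not overlap the 2 controls. It was 0.20 in granule-like nuclei and 0.26 in microglia-like nuclei, where both TBI rats lay above both controls, as for 19.9% and 18.6% of all genes. It was −0.40 in immature granule-like nuclei and −0.27 in GABAergic neurons, where both lay below, as for 11.9% and 8.98% of all genes. The lowest edgeR p of Grm8 in any class was 0.153. In both microglia-like clusters and in 2 of the 3 GABAergic clusters taken singly the groups overlapped. They also overlapped in granule-like clusters 1, 2 and 4, and in cluster 0 they did not. The difference between the classes was not tested, and 4 rats gave all of these values.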

How the results depend on the processing

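For the 24 receptor Log2FC described singly in the report, 263 values under the alternatives kept direction and side of the threshold, 11 changed sign and 3 passed the threshold, these being Grm3 in astrocyte-like nuclei by DESeq2 and without the filter on low counts, and Grm2 there without that filter. In that class DESeq2 called 262 of 5482 genes (4.78%), and edgeR without the filter called many other genes, counted below. Changes of sign were in bulk −0.46 for Grm2 with oligodendrocyte markers as a covariate and 0.28 for Grm8 with surgery period as a covariate. Another was 0.05 for Grm7 in immature granule-like nuclei under the marker gate, which left 35 nuclei there, 1 of them in TBI rat 1. When single rats were left out, the Log2FC ran from −0.43 (without TBI rat 1) to 1.51 (without sham rat 1) for Grm2 in bulk and from −0.44 (without TBI rat 1) to 0.31 (without sham rat 1) for Grm8 in bulk. In nuclei it ran from −0.76 (without the naïve rat) to 0.40 (without the sham rat) for Grm3 and from −0.38 to 0.01 (the same rats) for Grm5 in granule-like nuclei, and from −0.67 (without the sham rat) to 0.21 (without the naïve rat) for Grm8 in the other glutamatergic neurons. Over all 48 fits of a receptor, 74 of 549 alternative values changed sign and 5 passed the threshold. Those beyond the 3 above were Grm3 without the sham rat in microglia-like nuclei (Log2FC 1.16, against −0.12 with all rats) and in committed precursors (Log2FC 2.67, against 0.44). These fits had a single control, the naïve rat, and other genes passed in them too, as counted below. The causes were not tested.

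Levels that moved were Grm3 in oligodendrocyte-like nuclei, at 3862 CPM under the marker gate, 2523 CPM in nuclei with at least 1000 UMIs and 4230 CPM without the deeper glial clusters, and Grm7 in immature granule-like nuclei, at 1757 CPM under the marker gate. The last of these rests on the 35 nuclei left by the gate. The other 15 levels moved by less than 1 SD. The alternative without the deeper clusters and both marker covariates were chosen after seeing the data.

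Genes called numbered 0 by edgeR in bulk and in each class. In bulk DESeq2 called 349, the fit with oligodendrocyte markers 1, and edgeR 0 to 1 (without TBI rat 3) with each rat left out. DESeq2 called 262 genes in astrocyte-like and 1 in oligodendrocyte-like nuclei. Without the filter on low counts edgeR called 654 in astrocyte-like, 47 in other glutamatergic, 35 in OPC-like, 28 in GABAergic, 20 in microglia-like, 15 in oligodendrocyte-like and 8 in immature granule-like nuclei. With each rat left out the counts were 0 to 24 in granule-like nuclei (24 without TBI rat 2), 0 to 71 in immature granule-like (71 without the sham rat), 0 to 11 in other glutamatergic and 0 to 59 in GABAergic (highest without TBI rat 1) and 0 to 8 in astrocyte-like nuclei (8 without either TBI rat). They were 0 to 27 in oligodendrocyte-like (27 without TBI rat 2), 0 to 25 in OPC-like (25 without TBI rat 1), 0 to 86 in committed precursors and 0 to 172 in microglia-like nuclei (both highest without the sham rat). Counts of genes at an unadjusted p under 0.05 moved by over 1.5 times in 51 of 116 alternatives.

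With the replicate number as a block, edgeR called 61 genes in bulk and 0 of the receptors. Same-numbered sham and TBI libraries deviated from their group means with correlations of 0.352, 0.173 and −0.0297, so the numbers were not taken as pairing. No paired analysis was possible in nuclei because the groups share fewer than 2 numbers.

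Precision was limited by 2 rats against 2 in nuclei, by the pooling of a sham with a naïve rat, by granule transcripts counted in all classes, and by few counts of Grm2 in nuclei and Grm8 in bulk. Names of classes rest on rebuilt clusters.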
